A study of Mus musculus with 18 samples.

Results

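The podocyte genes described here are Tcf21, Wt1, Podxl, Nphs1, Synpo and Ptpro, a list of 6 genes taken with every probe set that the platform annotation gives to that gene alone. Of the 6, 5 were on the array with 1 probe set each, out of 8251 genes so annotated. Nphs1, which encodes the slit diaphragm protein nephrin, had no such probe set and was not analysed here. The filter on dim probe sets left 4 of the 5 among the 5744 genes tested: Tcf21, Wt1, Synpo and Ptpro. Podxl lay below it and is given by its signals. Wt1 averaged a signal of 117 in the 1-month controls, under the filter's 119, so it was retained through its brighter 7-day arrays.

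Kidney RNA from C57 mice was measured on Affymetrix arrays, 1 array per mouse. The groups were Aprt KO mice at 1 month (n = 3), control mice at 1 month (n = 3), Aprt KO mice at 7 days (n = 6) and control mice at 7 days (n = 6), described in the series text as Aprt-/- and Aprt+/+. Every Aprt KO mouse was paired with a control littermate of its own sex, giving 9 pairs: 1 female and 2 male pairs at 1 month, and 3 of each sex at 7 days. Aprt encodes adenine phosphoribosyltransferase, an adenine salvage enzyme whose loss leads to 2,8-dihydroxyadenine crystals and stones in the kidney; the labels name neither the kind of Aprt allele nor any crystal measurement in these animals. The series text calls the age groups newly born and adult; the labels' ages are used, and age cannot be told apart from any array batch that coincides with it.

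On GRCm38.p6, the assembly of the RefSeq gene table used, Tcf21 lies on chromosome 10 at 22817263 to 22820143, Wt1 on chromosome 2 at 105126529 to 105173614, Synpo on chromosome 18 at 60593981 to 60660173, Ptpro on chromosome 6 at 137252299 to 137464634 and Podxl on chromosome 6 at 31519493 to 31563937.

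Podocytes are the epithelial cells that wrap the capillaries of the glomerulus. Their interlocking foot processes and the slit diaphragm between them form the outer layer of the filter that retains plasma protein. Wt1, a zinc finger transcription factor, is required for the formation of nephrons and stays on in mature podocytes. Tcf21 (Pod1) is a basic helix-loop-helix transcription factor of podocytes and of the stromal cells of the kidney interstitium, and is needed in the embryo for glomeruli to form. Podxl (podocalyxin) is the negatively charged sialomucin of the podocyte surface and is also made by endothelium, Synpo (synaptopodin) is an actin-associated protein of the foot processes, and Ptpro (GLEPP1) is a receptor-type tyrosine phosphatase of the podocyte surface. In the mouse, nephron formation ends within days of birth, and glomeruli go on maturing while tubules grow.

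Promoter windows of 250 bases upstream of the start were available for Tcf21 and Ptpro among the measured genes, and are shown because both genes were lower at 1 month than at 7 days. They are RefSeq sequence on GRCm38.p6, written 5′ to 3′ along the gene, and capitals mark each E-box, CANNTG, the general recognition motif of basic helix-loop-helix proteins such as Tcf21.
Tcf21, chr10:22820144-22820393, minus strand: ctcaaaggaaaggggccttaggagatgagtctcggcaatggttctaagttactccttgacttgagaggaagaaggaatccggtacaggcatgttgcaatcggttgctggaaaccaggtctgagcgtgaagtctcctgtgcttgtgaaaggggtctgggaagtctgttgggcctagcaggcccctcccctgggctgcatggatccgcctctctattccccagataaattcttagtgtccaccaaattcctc
Ptpro, chr6:137252049-137252298, plus strand: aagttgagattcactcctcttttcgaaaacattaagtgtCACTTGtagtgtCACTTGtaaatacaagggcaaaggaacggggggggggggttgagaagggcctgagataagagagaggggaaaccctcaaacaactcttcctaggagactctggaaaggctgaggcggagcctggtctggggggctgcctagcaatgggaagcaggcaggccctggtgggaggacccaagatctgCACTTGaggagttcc
The Tcf21 window held no E-box. The Ptpro window held 3, all reading CACTTG, with first bases at -211, -199 and -15 from the start. Of 32851 mouse windows of this length, 66.2% held at least 1 E-box on either strand, so its presence is common. The Wt1 motifs GCGGGGGCG and GCGTGGGAG, searched on both strands, were found in neither window; 2.57% and 0.405% of all windows held them. A match is a match of letters and no evidence of binding.

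Each array's trimmed mean signal was close to 500, and median signals lay between 160.1 and 216.4. The arrays of littermate pair 4 (Aprt KO 4 and control 4 at 7 days) stood apart by a compressed upper range: their highest signals were 10167 and 10767, against 25718 to 51453 on the other 16 arrays. The brightest Aprt probe set, a dim one at the 35th percentile of mean signal, checks the labels only weakly. The other Aprt probe sets were dimmer and were not used for the check. Their Aprt KO and control means were 30.4 and 35.2, and 27.4 and 30.2, at 1 month. At 7 days they were 39.3 and 34.2, and 31.6 and 25.4, with no drop in Aprt KO kidneys. The brightest probe set read 86.5, 57.8 and 52.3 on Aprt KO arrays against 109.5, 107.9 and 103.9 on control arrays at 1 month. At 7 days the Aprt KO arrays ran from 41.9 to 135.4 with a median of 56.0, and the control arrays from 51.3 to 148.2 with a median of 139.6. Against the midpoint between the group medians at each age, 4 arrays went against their label: Aprt KO 1 at 1 month, Aprt KO 4 at 7 days, and controls 1 and 2 at 7 days. Group names below are those of the labels, and the main results are also given with those arrays left out.

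**Figure D1:**
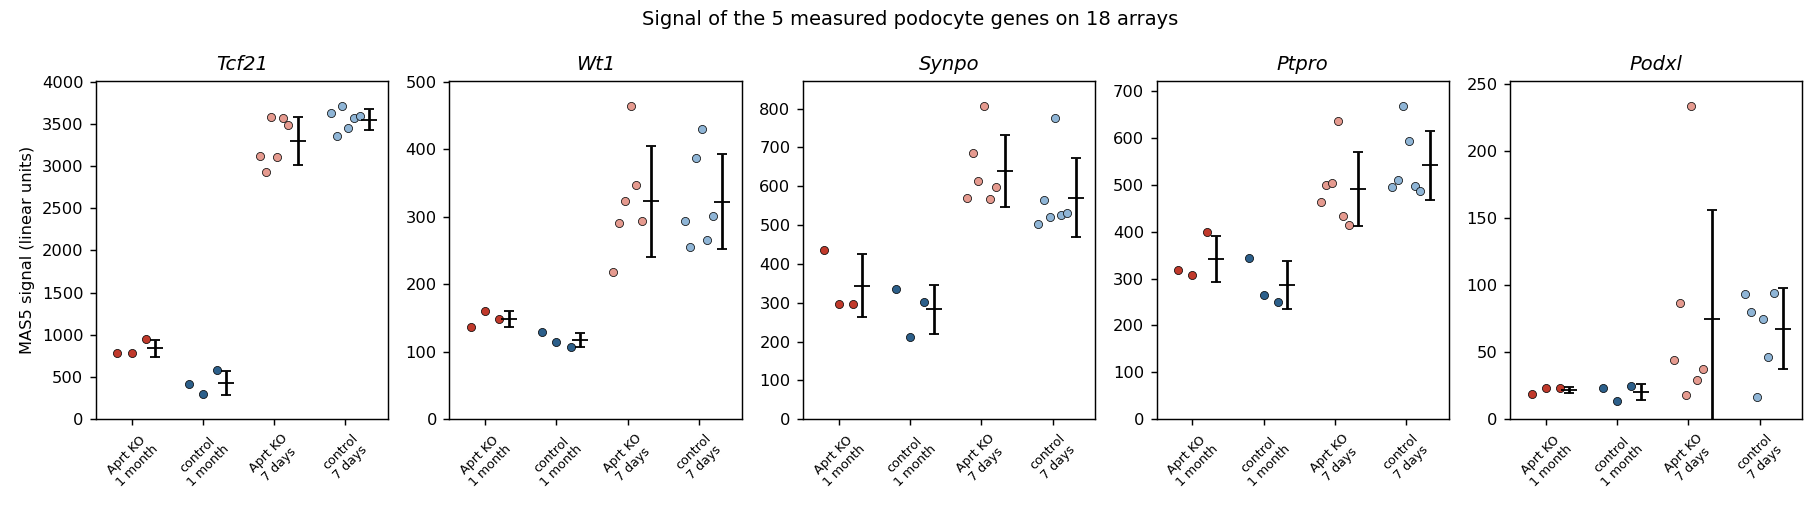
MAS5 signal (linear units) of the 5 measured podocyte genes on each of 18 arrays, by group; points are mice, the dash and bar are the group mean and SD, and each panel has its own axis from 0. Tcf21 separates all 4 groups except the 7-day Aprt KO and control arrays, which overlap, while the other genes mainly separate the ages; the bar of Podxl in 7-day Aprt KO kidneys is cut at 0, since its SD of 81.3 exceeds its mean of 74.9.

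At 1 month, Tcf21 was higher in Aprt KO kidneys, the only podocyte gene of the 4 tested to pass the test there. Its signals were 784.4, 783.4 and 955.8 in Aprt KO kidneys, against 416.9, 296.4 and 579.5 in control kidneys. The lowest Aprt KO array lay above the highest control array, and each Aprt KO mouse exceeded its littermate, at ratios of 1.88, 2.64 and 1.65 for pairs 7, 8 and 9. The fitted ratio, on the log2(signal + 29) scale used throughout, was 1.95-fold (log2 fold change 0.96, SE 0.17, 95% interval 0.61 to 1.32; limma adjusted p = 0.0184 over 5744 genes). Group means were 841 ± 99.3 in Aprt KO kidneys and 431 ± 142 in control kidneys (SD, n = 3 each). Across all genes, 0.313% were called in this comparison (18 genes, and 79 with the littermate pair as a block, where Tcf21 had an adjusted p of 0.000752). Tcf21 stood 7th by p-value and 39th by the size of the rise. Groups that did not overlap, with Aprt KO above, occurred for 4.2% of all genes.

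The call at 1 month was lost when any of 4 of the 6 mice of that age was left out: without Aprt KO 1, Aprt KO 3, control 1, control 2 or pair 7 the adjusted p was 0.0746, 0.148, 0.0750, 0.0753 and 0.0749, with log2 fold changes of 1.01, 0.87, 1.01, 0.69 and 1.01. Fitted on the 1-month arrays alone the adjusted p was 0.623, and without the 4 arrays whose Aprt signal went against their label it was 0.172, at log2 fold changes of 0.96 and 1.01. Pair 7 is the only female pair at 1 month, and the model has a sex term per age. Leaving out Aprt KO 1, control 1, pair 7 or those 4 arrays therefore rests the estimate on the same male pairs, at 1.01 each time. These losses are not separate from each other.

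Wt1, Synpo and Ptpro were not called at 1 month (limma adjusted p of 1.00 for each). Wt1 had signals of 136.9, 160.1 and 147.9 in Aprt KO kidneys, against 128.6, 114.6 and 107.7 in control kidneys. These groups do not overlap and all 3 pairs had the higher value in the Aprt KO mouse, yet the log2 fold change was 0.28 with an interval of -0.18 to 0.74. Synpo had signals of 436.9, 295.9 and 298.0 in Aprt KO kidneys, against 334.9, 212.7 and 301.6 in control kidneys, which overlap (log2 fold change 0.26, interval -0.09 to 0.60). Ptpro had 317.3, 308.4 and 398.9 in Aprt KO kidneys, against 344.4, 264.9 and 249.5 in control kidneys, also overlapping (0.24, interval -0.13 to 0.60). Synpo and Ptpro were each higher in the Aprt KO mouse in 2 of 3 pairs. The intervals of all 3 genes include 0 and also rises of more than 0.5 on the log2 scale, so similar levels are not shown.

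**Figure D2:**
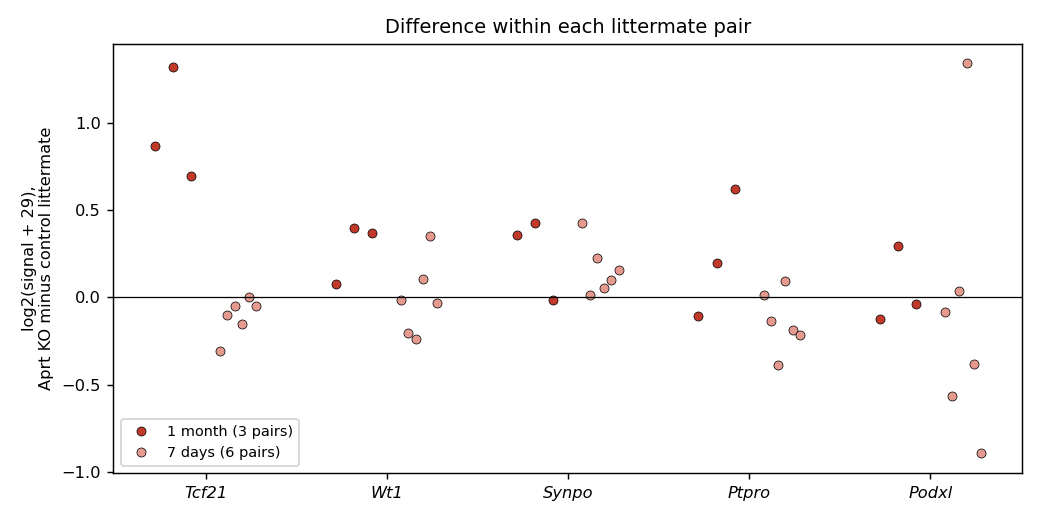
Difference in log2(signal + 29) between each Aprt KO mouse and its control littermate for the 5 measured genes, with 3 pairs at 1 month (left) and 6 pairs at 7 days (right); each point is a pair. All 3 Tcf21 points at 1 month lie well above 0, whereas its 6 points at 7 days lie at or below 0.

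At 7 days none of the 4 tested podocyte genes was called, and none had an unadjusted p under 0.05 in the limma fit, while 3.22% of all genes were called (185 genes, and 500 with the littermate pair as a block). Tcf21 had signals of 3121, 2926, 3579, 3104, 3569 and 3481 in Aprt KO kidneys, against 3626, 3355, 3711, 3447, 3569 and 3598 in control kidneys. The groups overlap, although the ratio within a pair was 0.807, 0.930, 0.964, 0.901, 1.00 and 0.968 for pairs 1 to 6, at or below 1 in all 6. The log2 fold change was -0.11 (SE 0.12, interval -0.36 to 0.14, adjusted p = 0.939). With the littermate pair as a block, limma gave an SE of 0.075 and an adjusted p of 0.456.

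Wt1 at 7 days had signals of 217.6, 290.2, 323.4, 463.6, 346.3 and 293.8 in Aprt KO kidneys, against 293.0, 255.3, 387.1, 429.6, 265.1 and 300.9 in control kidneys. The groups lie over each other (log2 fold change -0.01, interval -0.33 to 0.32), and the highest array of each is that of pair 4. Synpo had 569.4, 685.3, 614.2, 806.3, 567.3 and 596.9 in Aprt KO kidneys, against 503.2, 564.8, 520.7, 775.3, 527.1 and 532.3 in control kidneys. Its signal was higher in the Aprt KO mouse in 6 of 6 pairs, but the difference did not pass the test (log2 fold change 0.16, interval -0.08 to 0.40, adjusted p = 0.797). The log2 fold change was 0.18 without pair 4. With the littermate pair as a block, which uses the pairing, limma gave an SE of 0.080 and an adjusted p of 0.271. Ptpro had 462.9, 499.4, 504.0, 635.3, 433.3 and 414.6 in Aprt KO kidneys, against 494.5, 510.2, 667.7, 594.0, 498.0 and 485.8 in control kidneys, with the Aprt KO mouse higher in 2 of 6 pairs (log2 fold change -0.14, interval -0.40 to 0.12; -0.18 without pair 4).

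Podxl was dim at both ages, with its mean signal at the 27.2 percentile of all probe sets. At 1 month it read 19.1, 23.5 and 23.3 in Aprt KO kidneys, against 23.4, 13.8 and 24.6 in control kidneys. At 7 days it read 44.5, 86.8, 17.9, 233.8, 29 and 37.4 in Aprt KO kidneys, against 93.8, 80.0, 16.6, 74.7, 46.6 and 94.4 in control kidneys. The 233.8 belongs to pair 4, and the spread within the 7-day groups is wider than any genotype difference. With no filter on dim genes, over 8251 genes, its log2 fold change was 0.04 (SE 0.38) at 1 month and -0.09 (SE 0.27) at 7 days. Between the ages it was -0.76 (SE 0.34, adjusted p = 0.106) in Aprt KO kidneys and -0.89 (SE 0.34, adjusted p = 0.0546) in control kidneys, neither called.

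The genotype difference of Tcf21 itself differed between the ages. The interaction, the log2 fold change at 1 month minus that at 7 days, was 1.07 (SE 0.21, interval 0.64 to 1.50, limma adjusted p = 0.0222), among 0.4% of all genes called (23 genes, and 93 with the littermate pair as a block, where Tcf21 had an adjusted p of 0.00145). For Ptpro, Wt1 and Synpo the interaction was 0.37 (SE 0.21), 0.29 (SE 0.27) and 0.09 (SE 0.20), each with an adjusted p of 1.00. Whether Tcf21 differs from these genes in its interaction was not tested. The Tcf21 call was lost without Aprt KO 1, Aprt KO 3 or control 1 of the 1-month mice, at adjusted p of 0.0837, 0.111 and 0.0837. It was also lost without pair 1, 2, 4, 5, 6 or 7, at 0.0822, 0.0637, 0.0529, 0.0595, 0.0513 and 0.0835. Removing the 4 arrays that went against their label by Aprt signal gave 0.308. Leaving out Aprt KO 1, control 1, pair 7 or those 4 arrays again rests the 1-month part on the same male pairs, so these losses are not separate. The difference stayed between 0.80 and 1.32 in every setting run.

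**Figure D3:**
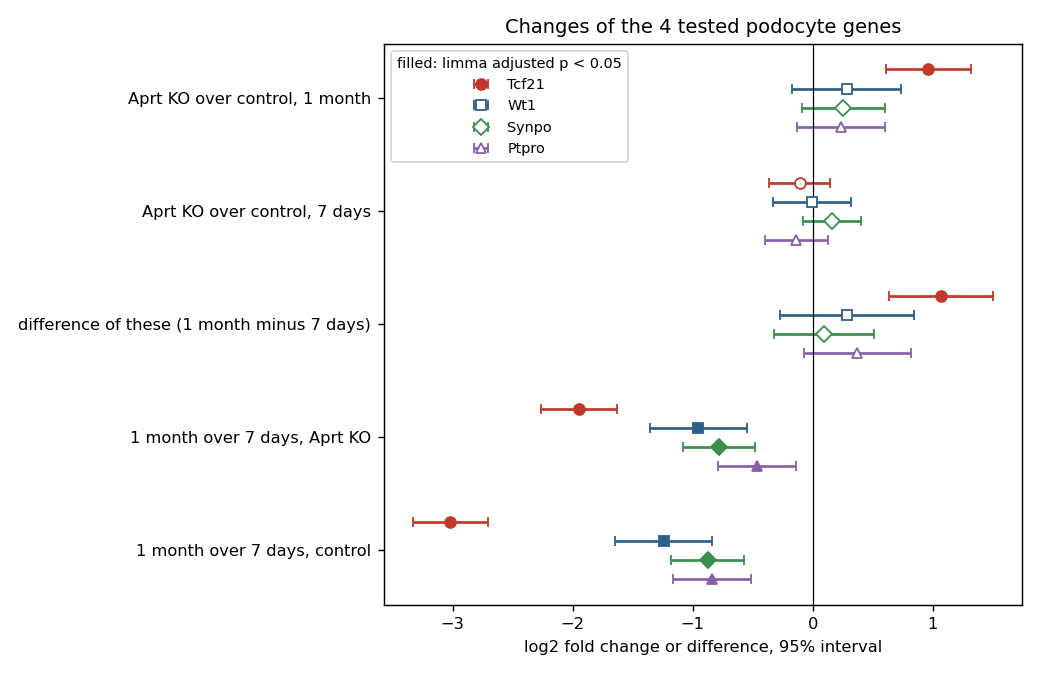
Log2 fold change, with its 95% interval, of the 4 tested podocyte genes in each comparison; filled symbols passed limma's adjusted p under 0.05. Tcf21 is the filled symbol in the 1-month genotype comparison and in the difference between ages, and all 4 genes are filled and below 0 in both comparisons of 1 month with 7 days.

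All 4 tested podocyte genes were lower at 1 month than at 7 days in both genotypes, with no overlap between the ages for any of them. In control kidneys the 1-month mean of Wt1 lay under the filter, so its place in that count is no support. In Aprt KO kidneys the background was 25.3% of all genes called lower and 22.1% lower without overlap, and in control kidneys 26.1% and 21%. Whole-kidney RNA cannot tell fewer cells of a type from less RNA per cell, and the signal scaling makes every value relative to the rest of the kidney's RNA. The median log2 fold change over all genes was -0.12 in Aprt KO kidneys and -0.11 in control kidneys, and quantile normalization, which brings these medians to 0.00, left the 4 genes at -0.29 to -1.95 in Aprt KO kidneys and at -0.65 to -2.97 in control kidneys.

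Tcf21 fell by 1.95 on the log2 scale in Aprt KO kidneys (SE 0.15, interval -2.26 to -1.63, limma adjusted p = 1.19e-08), which is 3.86-fold lower and the 87th largest fall among 5744 genes. In control kidneys it fell by 3.02 (SE 0.15, interval -3.33 to -2.70, adjusted p = 3.34e-11), which is 8.10-fold lower and the 20th largest fall. From low to high, the Tcf21 group levels ran from control at 1 month, through Aprt KO at 1 month and Aprt KO at 7 days, to control at 7 days, at 431, 841, 3297 and 3551. The 7-day groups, neighbours in that order, do not differ beyond their spread.

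Wt1 fell by 0.96 (SE 0.19, adjusted p = 0.000613) in Aprt KO kidneys and by 1.24 (SE 0.19, adjusted p = 4.84e-05) in control kidneys. Its means were 148 ± 11.6 at 1 month (n = 3) and 322 ± 81.7 at 7 days (SD, n = 6) in Aprt KO kidneys, and 117 ± 10.6 at 1 month (n = 3) and 322 ± 70.4 at 7 days (SD, n = 6) in control kidneys. Synpo fell by 0.78 (SE 0.14, adjusted p = 0.000277) in Aprt KO kidneys and by 0.87 (SE 0.14, adjusted p = 9.3e-05) in control kidneys. Its means were 344 ± 80.8 and 640 ± 92.2 in Aprt KO kidneys, and 283 ± 63.2 and 571 ± 102 in control kidneys, each at 1 month and then at 7 days.

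Ptpro fell by 0.47 (SE 0.15, adjusted p = 0.0219) in Aprt KO kidneys and by 0.84 (SE 0.15, adjusted p = 0.000277) in control kidneys. Its means were 342 ± 49.9 and 492 ± 78.8 in Aprt KO kidneys, and 286 ± 50.9 and 542 ± 73.3 in control kidneys, at 1 month and 7 days. The Ptpro fall in Aprt KO kidneys was the least stable. It was not called without Aprt KO 1 (-0.25, adjusted p = 0.456) or Aprt KO 2 (-0.42, adjusted p = 0.0743) of the 1-month mice, without pair 7 (-0.44, adjusted p = 0.0531) or pair 8 (-0.42, adjusted p = 0.0769), or with quantile normalization (-0.29, adjusted p = 0.152). Without the 4 arrays whose Aprt signal went against their label, Ptpro (-0.17, adjusted p = 0.623) and Wt1 (-0.73, adjusted p = 0.0639) were not called in Aprt KO kidneys, while Tcf21 and Synpo were. Aprt KO 1 is the only female Aprt KO mouse at 1 month. Without it, the sex term of that age rests on control 1 as the only female. The values without Aprt KO 1 or without those 4 arrays therefore depend on that mouse as well.

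**Figure D4:**
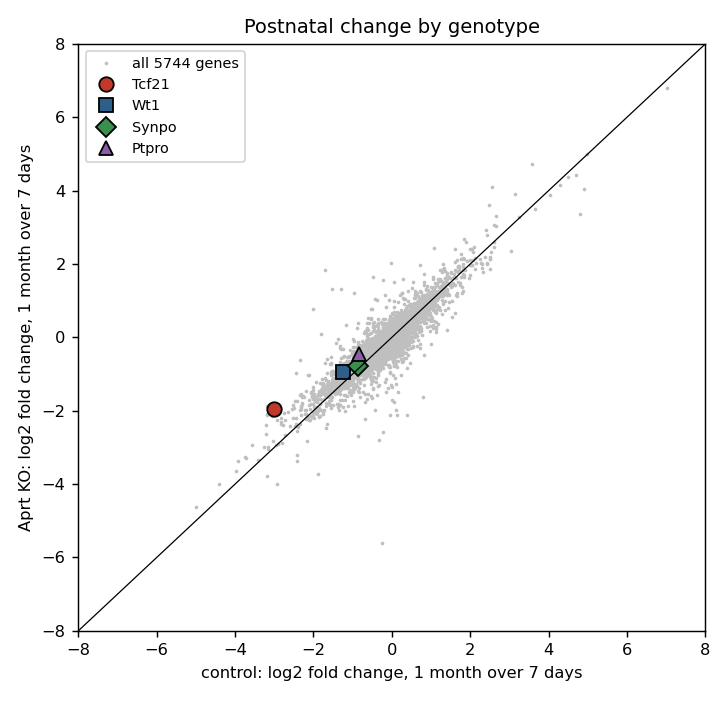
Log2 fold change of 1 month over 7 days in Aprt KO kidneys (y axis) against that in control kidneys (x axis) for all 5744 genes (grey), with the 4 podocyte genes marked and the line of equality. Tcf21 lies at -1.95 and -3.02, above the line, and the other podocyte genes lie nearer to it between -1.24 and -0.47.

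The fall with age extended to other genes of the podocyte, but was not particular to them. Of 54 further podocyte genes listed, 28 were measured above the filter. Of these 28, 17 fell in Aprt KO kidneys (median log2 fold change -0.65) and 15 in control kidneys (median -0.56), beside the 25.3% and 26.1% of all genes, and none rose. Of those that fell, Prkci in both genotypes and Fyn and Pdpn in control kidneys had a 1-month mean under the filter, so that, like Wt1, they were retained through their 7-day arrays; of the others, 16 of 27 fell in Aprt KO kidneys and 12 of 25 in control kidneys. Fyn, a kinase that phosphorylates nephrin, fell by 2.08 in Aprt KO kidneys and by 2.19 in control kidneys. The slit diaphragm scaffold Tjp1 (ZO-1) fell by 1.37 and 1.71, the transcription factor Foxc2 by 1.38 and 1.58, and nephronectin (Npnt), a basement membrane ligand of integrins, by 1.35 and 1.76, each in Aprt KO and then in control kidneys. Vegfa, the podocyte's signal to glomerular endothelium, was not called at 0.22 and -0.07, nor was the actin crosslinker Actn4 at -0.09 and -0.25. Many of these genes are also expressed outside podocytes, so the list is not specific to that cell. In the glomerular basement membrane list, 6 of 8 measured genes fell in each genotype, with medians of -0.90 in Aprt KO kidneys and -0.91 in control kidneys. The laminin chain Lamb2 (-0.29 and -0.44) and the collagen chain Col4a4 (0.59 and 0.51) were not called. Falls in other kidney cell types, described below, were counted where the 1-month mean reached the filter. In Aprt KO and then control kidneys, these were 6 of 8 and 6 of 7 mesangial and smooth muscle genes. Endothelial genes gave 5 of 10 and 7 of 10, and mesothelial genes 3 of 4 in each. Nephron progenitor and early nephron genes gave 2 of 8 and 1 of 7, and myeloid genes 8 of 9 and 0 of 8. Of 12 proximal tubule genes, 0 fell, and 9 and 8 rose.

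Between genotypes the wider podocyte list had few calls. At 1 month 0 of 28 were called by limma, 2 with an unadjusted p under 0.05, and the median log2 fold change was 0.08, against 0.00 over all genes. At 7 days 1 was called, Cdkn1c, the cell cycle inhibitor p57 of maturing podocytes, which was lower in Aprt KO kidneys (log2 fold change -0.79, SE 0.11, adjusted p = 0.000266; 0.679% of all genes were called lower). Cdkn1c averaged 968 ± 72.0 in Aprt KO kidneys and 682 ± 175 in control kidneys at 1 month (SD, n = 3 each; log2 fold change 0.51, adjusted p = 0.402), and 3829 ± 524 in Aprt KO kidneys and 6649 ± 1053 in control kidneys at 7 days (SD, n = 6 each). Its interaction was 1.30 (SE 0.20, adjusted p = 0.00409), so the genotype difference of Cdkn1c, like that of Tcf21, was the more positive at 1 month. No gene of the basement membrane list was called between genotypes at either age; 0 of 8 had an unadjusted p under 0.05 at 1 month and 1 of 8 at 7 days.

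Markers of stroma and fibroblasts, the other kidney cells in which Tcf21 is known, were higher in Aprt KO kidneys together with Tcf21 at 1 month, but at 7 days they ran higher where Tcf21 did not. Of 17 measured stromal genes (22 listed), 6 were called higher in Aprt KO kidneys at 1 month (background 0.296%), all 17 had positive log2 fold changes, and the median was 0.75. They included the fibrillar collagen Col1a1 (log2 fold change 1.47, adjusted p = 0.00653) and the small proteoglycan lumican, Lum (0.90, adjusted p = 0.0228). At 7 days 2 of the 17 were called higher, the matrix protein Mgp (log2 fold change 1.32) and the surface protein Thy1 (1.39), 15 had positive log2 fold changes and the median was 0.27, beside 2.54% of all genes called higher and a Tcf21 log2 fold change of -0.11. The summed stromal signal ranged from 15095 to 17404 in Aprt KO kidneys and from 8135 to 10838 in control kidneys at 1 month, and from 46671 to 52670 in Aprt KO kidneys and from 36178 to 44672 in control kidneys at 7 days. At 1 month the dimmest stromal marker was Foxd1 in Aprt KO kidneys, at a mean signal of 63.8, and Thy1 in control kidneys, at 26.5. None of the 17 was at 0, and their part in the Tcf21 result was not tested.

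Within each array, Tcf21 was set against the mean of the 17 stromal genes on the log2 scale. At 1 month this difference was 0.66, 0.40 and 0.76 in Aprt KO kidneys, against 0.48, -0.05 and 0.67 in control kidneys. These groups overlap, with means of 0.61 ± 0.18 and 0.37 ± 0.37 (SD, n = 3 each), although the Aprt KO mouse had the higher value in all 3 littermate pairs. At 7 days it ran from 0.51 to 0.86 in Aprt KO kidneys and from 0.99 to 1.31 in control kidneys, which do not overlap, the Aprt KO mouse being the lower in all 6 pairs. Set instead against the mean of Wt1, Synpo and Ptpro, Tcf21 at 1 month stood at 1.44, 1.56 and 1.76 in Aprt KO kidneys, against 0.68, 0.59 and 1.39 in control kidneys. All 3 Aprt KO arrays were above the controls, by the narrow gap of 1.44 against 1.39. Both measures reuse the Tcf21 signals given above and are no separate support. How often other genes separate the groups on such measures was not counted. The 7-day values on that measure overlap, at 2.27 to 2.97 in Aprt KO kidneys and 2.50 to 3.03 in control kidneys. With age, 16 of 17 stromal genes fell in Aprt KO kidneys (median -1.90) and 17 of 17 in control kidneys (median -2.06), where 25.3% and 26.1% of all genes were called lower. Of these, 3 in Aprt KO kidneys and 5 in control kidneys, Thy1, Foxd1 and Lox among both, had a 1-month mean under the filter and were retained through their 7-day arrays; of the rest, 13 of 14 and 12 of 12 fell.

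**Figure D5:**
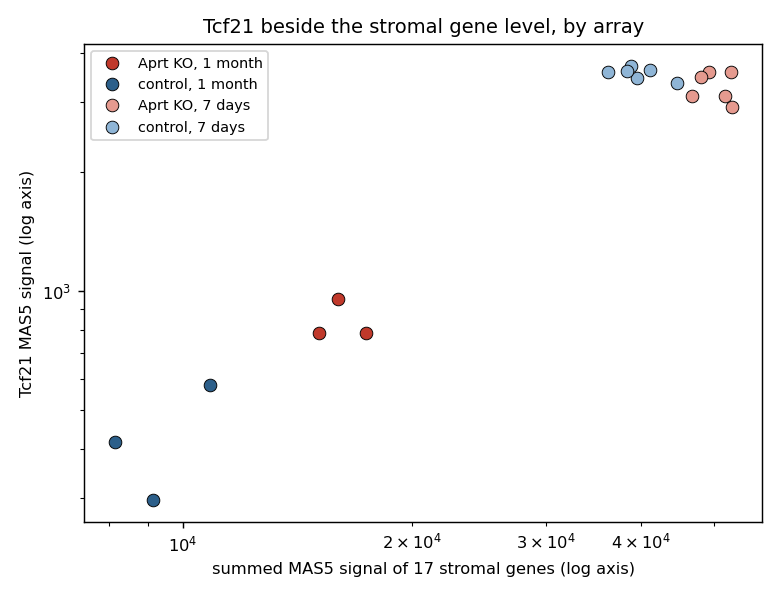
Tcf21 signal (y axis, log) against the summed signal of 17 stromal genes (x axis, log) on each array, coloured by group. At 1 month the Aprt KO arrays lie above and to the right of the control arrays, whereas at 7 days they lie to the right of the control arrays at overlapping Tcf21 signals.

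Other cell types of the glomerulus and kidney moved as follows at 1 month, where the Tcf21 difference was called. The 10 endothelial genes had no call and a median of 0.17, with none at an unadjusted p under 0.05, and the 10 mesangial and smooth muscle genes had no call and a median of 0.50, with 5 at an unadjusted p under 0.05. The 12 nephron progenitor and early nephron genes had no call (1 at an unadjusted p under 0.05) and a median of 0.02. The 12 proximal tubule genes had no call (0 at an unadjusted p under 0.05) and a median of -0.03. At 7 days, where no podocyte gene of the 4 was called, 9 of 10 myeloid genes were called higher in Aprt KO kidneys (background 2.54%), with a median of 1.41. Of these 10, Mrc1 averaged 199 in 7-day Aprt KO kidneys and 115 in 7-day controls. Its means at 1 month were 55.1 in Aprt KO and 37.4 in control kidneys. It passed the filter of 119 only through the 7-day Aprt KO arrays, so its place in that count is no support. At 1 month no myeloid gene was called, 6 had an unadjusted p under 0.05, and the median was 0.41. Also at 7 days, 3 of 10 mesangial and smooth muscle genes were called higher, Tagln, Cnn1 and Acta2 (background 2.54%, median of the list 0.26). Cnn1 averaged 275 in 7-day Aprt KO kidneys, but 77.2 in 7-day controls, 23.1 in 1-month Aprt KO and 33.5 in 1-month control kidneys. It passed the filter of 119 only through the group where it was called higher, so its call is no support. By limma, no gene of the endothelial, nephron progenitor and proximal tubule lists was called at that age. In that order, 2, 0 and 5 of their genes had an unadjusted p under 0.05. Of the 4 measured mesothelial genes, 1 was called higher at 1 month, the keratin Krt19 (log2 fold change 1.26, limma adjusted p = 0.0114, background 0.296%). At 7 days 3 were called higher, Krt19, Krt18 and Krt8 (background 2.54%, median of the list 0.87). These keratins are also made by injured tubules and collecting ducts. Upk3b, the measured mesothelial gene that is not a keratin, went the other way at 7 days. It averaged 266 in Aprt KO and 328 in control kidneys and was not called, so the list shows no mesothelial rise. The part of these cell types in the podocyte gene values was not tested.

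After group means and sex were removed, the podocyte genes varied together only in part across the 18 arrays. Wt1 and Ptpro had Pearson's r of 0.67 (Spearman's rho 0.53), and r of 0.53 over 16 arrays without pair 4. Wt1 with Synpo had r of 0.45 (rho 0.33), but 0.11 without pair 4, and Synpo with Ptpro 0.40 (rho 0.36), but 0.15 without pair 4. Tcf21 had r of 0.06 with Wt1, 0.27 with Synpo and -0.02 with Ptpro, with rho of 0.19, -0.06 and -0.17; without pair 4, r was 0.13, 0.43 and 0.03. The arrays share litters and scaling, so these values are descriptions. By the same measure over 5744 genes, the closest to Tcf21 were Nipsnap2 (r 0.90, rho 0.87), the co-chaperone Sugt1 (r 0.88, rho 0.84) and the glycosyltransferase B3galnt1 (r 0.88, rho 0.74). The closest to Wt1 were the transcription factor Nfib (r 0.90, rho 0.92), Fip1l1 (r 0.89, rho 0.90) and the polarity kinase Mark2 (r 0.89, rho 0.88). For Synpo they were Atf4, Zscan21 and Yap1 (each r 0.92, with rho of 0.82, 0.82 and 0.79). For Ptpro they were Zfr (r 0.92, rho 0.86), Ptpn18 (r 0.86, rho 0.78) and Kdr (r 0.85, rho 0.84), the last being the endothelial receptor for Vegfa.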

How the data were processed

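RNA from 18 kidneys, 1 per mouse, was hybridised to 18 arrays. The deposited values are linear-scale intensity signals of 12488 probe sets made, per the submitters' processing notes, by MAS5 in GCOS; neither their versions nor a scaling target is given in the sources read. No further normalization was applied, and log2(signal + 29) was tested, 29 being the rounded 20th percentile of the whole table; on that scale the changes of dim genes are understated. Probe sets with 1 gene symbol and a mean signal at or above the 40th percentile were retained, and the brightest stood for a gene. The number of arrays, 3 or 6 in a group, limits the precision. Groups came from the sample titles.

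With limma 3.58.1 (lmFit, then eBayes with an intensity trend) in R 4.3.3, a model with a term per group and a sex term per age was fitted on the 18 arrays, with 12 residual degrees of freedom. Two-sided p-values were adjusted by Benjamini-Hochberg over 5744 genes, and genes were called at an adjusted p under 0.05. Non-overlap was counted on untransformed signals. The procedure was run on simulated data with errors drawn independently for each array. That setting leaves out the correlation between littermates given below, so it cannot show the error rates in these data. The labels name the littermates. Residuals of littermates had correlations of 0.24 to 0.67 over 9 pairs, and for 12 of 18 arrays the littermate was the closest array; the pair entered as a block only in alternatives. Other alternatives changed the pseudocount, filter, probe set rule, normalization, variance trend, sex term and arrays included.

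The members and all gene lists were chosen with earlier results of these data known, so list counts carry no test. The named genes are the members, any measured gene of the podocyte and basement membrane lists, up to 4 genes of smallest p in each other list and comparison, Aprt, and the 3 genes most correlated with each tested member after group means and sex effects are removed. Genes of any list were also named for a group mean under the filter. Figures were drawn with matplotlib 3.10.9.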

Additional observations from a re-analysis of the deposited data

Results flagged for a closer look

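Among 12 groups of 6 mice examined for a single distant array, 3 had one. All 3 belong to pair 4 at 7 days. A chance rate of about 1 in 20 groups holds for independent, normally distributed values. These groups share mice and hold untransformed signals, so the count cannot be set against that rate. Podxl read 233.8 in Aprt KO 4, where the next highest Aprt KO value was 86.8. Synpo read 775.3 in control 4, where the next highest control value was 565. Aprt read 135.4 in Aprt KO 4, where the next highest Aprt KO value was 58.1.

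The genotype difference changed between the ages for 5 named genes by limma's interaction test, given as the log2 fold change at 1 month minus that at 7 days. It was 1.07 for Tcf21 (adjusted p = 0.0222), 1.30 for Cdkn1c (adjusted p = 0.00409), 1.11 for Lum and 1.04 for Dcn, the stromal proteoglycans lumican and decorin (adjusted p = 0.0141 each), and -1.33 for Cd14, a myeloid co-receptor for bacterial lipopolysaccharide (adjusted p = 0.00409). Tcf21, Dcn and Lum were also called higher in Aprt KO kidneys at 1 month.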

How the results depend on the processing

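Over 40 alternatives (39 for comparisons that involve both ages), the number of podocyte genes called stayed at 0 at 7 days, and at 4 in control kidneys between the ages except 3 under the stricter filter, which removes Wt1. At 1 month it was 1, and 0 when only the groups compared were fitted or when the 4 arrays whose Aprt signal went against their label were left out; leaving out arrays or pairs gave 0 to 1. For the interaction it was 1, 0 without those 4 arrays, and 0 to 1 when arrays or pairs were left out. Between the ages in Aprt KO kidneys it was 4, 2 without those 4 arrays, 3 with quantile normalization, 3 under the stricter filter without Wt1, and 3 to 4 on leaving out arrays or pairs. Settings that leave out arrays also have fewer samples, and the cause of these losses was not tested. With the littermate pair as a fixed or random block (random alone between the ages within a genotype) these counts of called podocyte genes did not change. Values near 0 turned sign: Wt1 at 7 days (-0.01) spanned -0.10 to 0.080 and the Synpo interaction (0.09) spanned -0.021 to 0.24 when arrays or pairs were left out. Over all genes, calls ranged from 97 to 522 at 7 days, from 1 to 117 at 1 month, from 7 to 142 for the interaction, from 1226 to 2949 between the ages in Aprt KO kidneys and from 1431 to 2948 in control kidneys. At 7 days 78.9% of calls were higher in Aprt KO kidneys, and 55.6% with the littermate pair as a block. Podxl, near the dim end, limits what can be said of it.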
